A study of Mus musculus with 9 samples.

Results

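The broad UBTF regions of mouse pre-B cells are peaks wider than 5000 bp, and 10220 of them remained after overlapping ones were merged across 6 libraries. All regions of any width chosen in the same way merged to 47953. A region was taken when its width (end minus start in the deposited list) exceeded 5000 bp, when it lay on chromosomes 1 to 19 outside the ribosomal RNA gene (rDNA) sequence, and when it was among the best 20000 lines of its list by the score of the peak caller. A window of 90 kb on chromosome 8 was left out. The members were therefore selected on measured widths and scores, so the widths are given as a description. Tests were made on properties that the choice did not use, and on peak width only in a library held out from the choice of the summits compared. Regions at the limit looked alike on both sides of it. The 3 just over it were 5001 bp wide and had GC contents of 39.0% to 41.7%, while 3 of exactly 5000 bp had GC contents of 39.9% to 41.7%.

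UBTF was profiled by chromatin immunoprecipitation and sequencing (ChIP-seq) with a rabbit antiserum to both UBTF polypeptides. Each of 3 stages had 2 libraries: C57BL/6 wild type pre-B cells, premalignant Eµ-Myc cells and malignant Eµ-Myc cells, all primary cells from bone marrow. Eµ-Myc is a MYC transgene driven by an immunoglobulin heavy chain enhancer and was kept heterozygous, so it was absent from the wild type littermates. Wild type and premalignant cells were sorted as B220 high IgM low IgD low from female mice of 4 to 6 weeks, and malignant cells as B220+ IgM- IgD- from female and male mice of 10 to 20 weeks with spontaneous lymphoma, so age and sex cannot be told apart from malignancy. According to the study's methods the libraries of a stage came from separate biological replicate experiments. For the sorted pre-B cells the study's results name individual animals as the biological replicates. The methods do not repeat this for the ChIP-seq libraries. Peak lists hold positions and no expression, so the pre-B label was not checked here against marker genes, and in sorted bulk cells a site bound in few cells cannot be told apart from a site bound weakly in many.

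UBTF is an HMG-box protein that bends DNA and spreads over the whole transcribed part of active rDNA repeats, where it replaces nucleosomes and supports transcription by RNA polymerase I. It has also been found at promoters of genes that RNA polymerase II transcribes. Most of the regions described here lie on LINE-1 elements, mobile sequences that copy themselves through an RNA. A full-length LINE-1 has a promoter at its 5′ end, a first open reading frame (ORF1) for an RNA-binding protein, and a second (ORF2) for an endonuclease and reverse transcriptase. In young mouse elements the promoter is a tandem array of repeated units, called monomers, and many old copies have lost their 5′ part.

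No repeat annotation was used. The element was found from the genome itself: among open reading frames of at least 3000 bp on the autosomes, 3846 bp was the commonest length. All 2776 frames of this length resembled their consensus and are called intact ORF2 here. They were 94.5% to 99.2% identical to the consensus, and in 89.09% of them another long frame ended 40 bp upstream. That frame measured 1116 bp in 1574 copies, 1074 bp in 583 and 1158 bp in 193. Alignment of the consensus gave 41005 autosomal copies of at least 1000 bp, of which 15477 were aligned over at least 3000 bp. The layout of both frames is that of a full-length LINE-1. The junction between them is shown from a region on chromosome 14 that was broad in 5 libraries (mm9, minus strand, chr14:56811681-56811780), with the stop codon of ORF1 and the start codon of ORF2 in capitals.

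ORF1 to ORF2 junction: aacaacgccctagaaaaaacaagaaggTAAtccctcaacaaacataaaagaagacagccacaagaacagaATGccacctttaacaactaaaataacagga

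Most intact copies carried a marker of either of 2 kinds in their 5′ end. In 1417 copies a marker of 24 bases was found upstream of ORF1, and neighbouring markers lay 212 bp apart in 2042 of 2281 pairs. Another marker was found in 835 copies and recurred at 208 bp in 1465 of 1696 pairs. The 524 other copies held neither marker, and whether they carry altered or other units was not tested. A unit of each kind follows, because the summits of 4 libraries lay mostly upstream of ORF1, where these units are found. The first comes from chr14:56813377-56813588 (minus strand) and the second from chr3:6307342-6307549 (plus strand), both in mm9, and CG dinucleotides are in capitals.

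212-bp unit: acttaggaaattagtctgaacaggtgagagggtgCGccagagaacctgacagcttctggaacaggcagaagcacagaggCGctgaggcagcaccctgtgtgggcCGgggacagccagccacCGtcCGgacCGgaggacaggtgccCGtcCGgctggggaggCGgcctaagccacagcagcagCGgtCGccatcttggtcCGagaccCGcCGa
208-bp unit: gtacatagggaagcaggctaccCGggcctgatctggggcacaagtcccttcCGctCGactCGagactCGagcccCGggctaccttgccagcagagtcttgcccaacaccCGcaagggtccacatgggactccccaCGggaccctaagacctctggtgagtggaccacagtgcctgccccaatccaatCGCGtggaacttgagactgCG

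The 212-bp unit held 14 CG dinucleotides at a GC content of 65.1%, and the 208-bp unit held 11 at 62.5%. Each unit is printed from the first base of its marker. Exact matches to the marker of the first kind, on either strand, numbered 6105 on the autosomes, and 87.6% of them fell inside merged broad regions. For the second kind 91.3% of 6040 matches did. The merged regions covered 3.23% of the autosomes, and 23.9% and 20.8% of them held a match to the first and the second marker.

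Broad regions were rare in 3 libraries and common in the other 3. In wild type 1, 148 of 18182 regions were broad (0.814%), and in wild type 2, 25 of 18543 (0.135%). Premalignant 1 had 378 of 17706 (2.13%), whereas premalignant 2 had 7528 of 14490 (52.0%). Malignant 1 had 4340 of 15133 (28.7%) and malignant 2 had 5169 of 15910 (32.5%). The 2 premalignant libraries thus stood on different sides, and the gap between them was wider than that between premalignant 2 and either malignant library. The 3 libraries rich in broad regions also had longer lists, with 279068 to 575674 lines against 78113 to 184609, and their narrowest region of any rank measured 670 to 800 bp against 240 to 260 bp. The part of these differences in the number of broad regions was not tested, and the depth of the libraries is unknown.

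**Figure D1:**
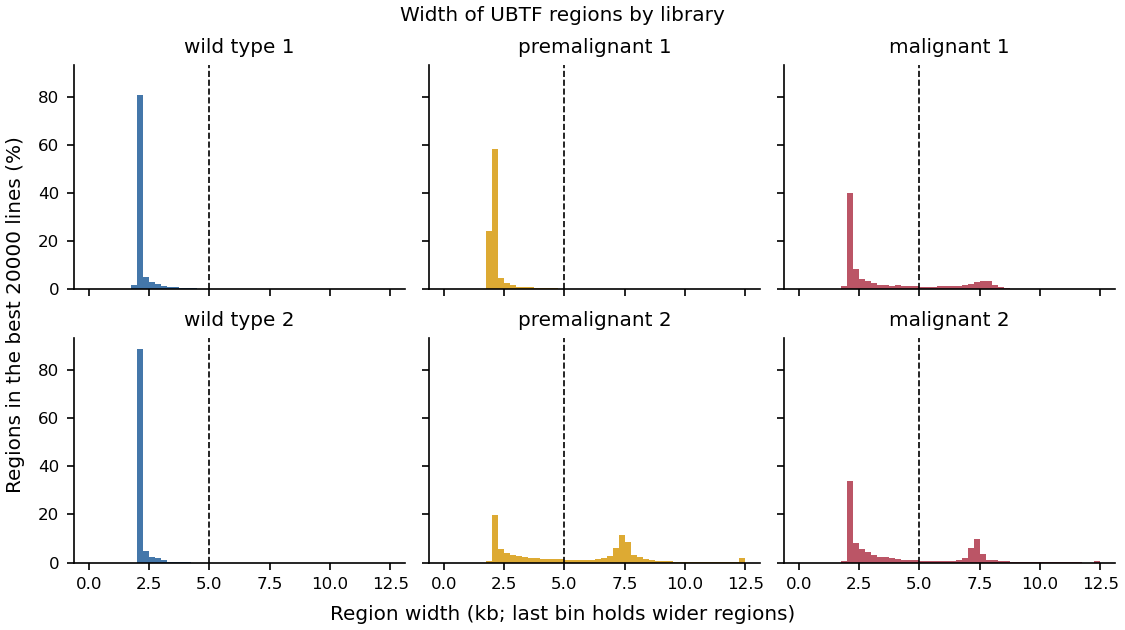
Width of UBTF regions among the best 20000 lines of each list, in bins of 250 bp (x axis, kb; the last bin holds all wider regions), as a percentage of that library's regions (y axis); the dashed line marks 5 kb. All 6 libraries have a peak near 2 kb, and premalignant 2, malignant 1 and malignant 2 have a second one between 7 and 8 kb.

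In premalignant 2, malignant 1 and malignant 2 the widths gathered at the size of one element. The median width of broad regions was 7432 bp in premalignant 2, 7368 bp in malignant 1 and 7316 bp in malignant 2, and 65.5%, 55.0% and 71.4% of them lay between 6500 and 8000 bp. In wild type 1, wild type 2 and premalignant 1 the medians were 5492, 5742 and 5903 bp. The narrower regions had medians of 2058 to 2385 bp in all 6 libraries. Merged regions had a median of 7519 bp with quartiles of 7055 and 8139 bp. Wider regions held more elements: the median was 7566 bp in 8614 regions with 1 ORF2 copy of at least 3000 bp, 13865 bp in 247 regions with 2, and 20444 bp in 15 regions with 3. A wider region has room for more copies, so these medians cannot show what set the width. Several summits shared 1 region in 60.0% to 80.4% of broad regions against 4.39% to 14.1% of narrower ones.

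Nearly all broad regions held an ORF2 copy. Of the 10220, 10078 held at least 1000 bp of aligned ORF2, 8878 (86.9%) held at least 3000 bp of a single copy, and 132 (1.29%) held none. A whole intact ORF2 lay in 2367 (23.2%), and 14 regions held more than 1. When the broad regions of each library were merged on their own, the share with at least 1000 bp of ORF2 was 78.1% in wild type 1, 45.5% in wild type 2, 92.0% in premalignant 1, 98.7% in premalignant 2, 99.1% in malignant 1 and 99.7% in malignant 2. Only wild type 2, with 25 broad regions, was below 78%. Summits within 3 kb of an ORF2 copy made up 40% to 99.7% of broad regions and 6.72% to 29.6% of narrower ones, with a mean difference of 66.1 ± 16.7 percentage points (SD, n = 6 libraries, higher in 6 of 6). Positions within 3 kb of such a copy make up 12.61% of the autosomal sequence. This measure was chosen after the values had been seen and is given without a test.

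Seen from the elements, 2381 of the 2776 intact ORF2 copies (85.8%) lay wholly inside a merged broad region and 2518 (90.7%) overlapped one. Broad regions overlapped 70.8% of the intact copies in malignant 1, 56.9% in premalignant 2 and 40.2% in malignant 2. They overlapped 8.97% in premalignant 1, 3.31% in wild type 1 and 0.324% in wild type 2. Peaks of any width and rank were found on many more: 78.1% of intact copies in wild type 1, 96.1% in wild type 2, 80.9% in premalignant 1 and 100% in the other 3. In those 3 the full lists also covered most short copies. Peaks overlapped 92.4% of copies aligned over 1000 to under 2000 bp in premalignant 2, 85.3% in malignant 2 and 53.6% in malignant 1, against 9.64% to 22.6% in the other libraries. Each intact copy had a peak in at least 3 full lists, and 1714 (61.7%) had one in all 6. A peak was thus called over most intact copies in all 6 libraries, while its width and rank varied.

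Copies with and without a marker were overlapped to a like degree in premalignant 2 and malignant 2 but not in malignant 1. Broad regions overlapped 74.2% of copies with the 212-bp unit and 73.4% of those with the 208-bp unit in malignant 1, against 57.3% of the other copies. In premalignant 1 the order was the same, at 10.1%, 8.38% and 6.87%. In premalignant 2 the shares were 56.9%, 56.8% and 57.1%, and in malignant 2 they were 40.6%, 38.8% and 41.0%.

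Short copies and the most divergent ones were overlapped less often. In malignant 1, broad regions overlapped 1.62% of copies aligned over 1000 to under 2000 bp, 3.34% from there to under 3000 bp, 6.12% up to under 3700 bp, 21.4% of longer copies without an intact frame, and 70.8% of intact copies. The same order held in premalignant 2, where the shares ran from 6.86% to 56.9%, and in malignant 2, where they ran from 4.17% to 40.2%. Among copies of at least 3000 bp, the share rose with identity to the consensus through all classes in malignant 1 but not in premalignant 2 or malignant 2. Below 85% identity, 0.332% of 603 copies were overlapped in malignant 1, and from 98% identity upwards 55.4% of 3497 were. In premalignant 2 the shares were 1.82% and 60.3%, and in malignant 2 they were 0.663% and 43.9%. In both of these the share levelled off from 95% identity upwards. In premalignant 2 it was highest at 95% to under 97%, with 63% of 1191 copies, and was 61.4% at 97% to under 98%. Malignant 2 had 46.4% and 46.7% in these classes. Width was part of the choice of regions, and a long copy meets a region more easily than a short one, so these shares are a description.

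**Figure D2:**
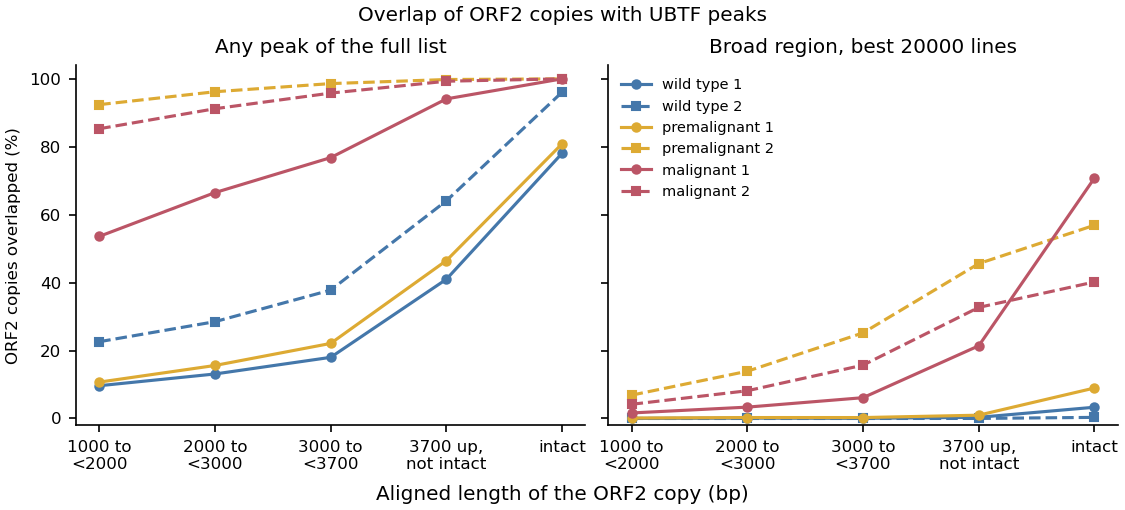
Share of ORF2 copies (y axis, %) overlapped by any peak of the full list (left) and by a broad region among the best 20000 lines (right), by aligned length of the copy (x axis, bp); each line is 1 library. Intact copies had a peak in 78.1% to 100% of cases, and broad regions overlapped 0.324% to 70.8% of them.

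Within the element, summits stood at different places in different libraries. Among broad regions that overlapped an intact ORF2, the best summit lay upstream of ORF1 in 90 of 91 regions of wild type 1, 8 of 9 of wild type 2, 242 of 247 of premalignant 1 and 1604 of 1967 of malignant 1 (81.5%). In premalignant 2 this held for 14 of 1575 (0.889%) and in malignant 2 for 7 of 1112 (0.629%). The medians were -1681, -1711, -1682 and -1576 bp from the ORF2 start in the first 4 of these libraries. The printed units span -1878 to -1666 and -1682 to -1474 bp in their own copies. In malignant 1 the medians were alike on copies with the first marker (-1578 bp), with the second (-1571 bp) and with neither (-1585 bp, n = 298 regions). Copies without a marker match can still hold a like unit, so this comparison cannot tell whether the position went with the units. In premalignant 2 and malignant 2 the medians over all such regions were 722 bp and 2041 bp, inside ORF2. In premalignant 2, 33.7% of summits lay over ORF1 and its spacer, 33.7% over the first part of ORF2 and 22.2% over its second part. In malignant 2 the shares were 25.8%, 21.8% and 29.0%, and 20.9% lay downstream. Narrower regions of wild type 1, premalignant 1 and malignant 1 that overlapped an intact ORF2 had medians of -1585, -1611 and -1531 bp. In wild type 2 the 32 narrower ones had a median of 4365 bp, downstream of ORF2. In both Eµ-Myc stages the replicates thus differed from each other, and narrower regions of 3 libraries shared the position of the broad ones.

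**Figure D3:**
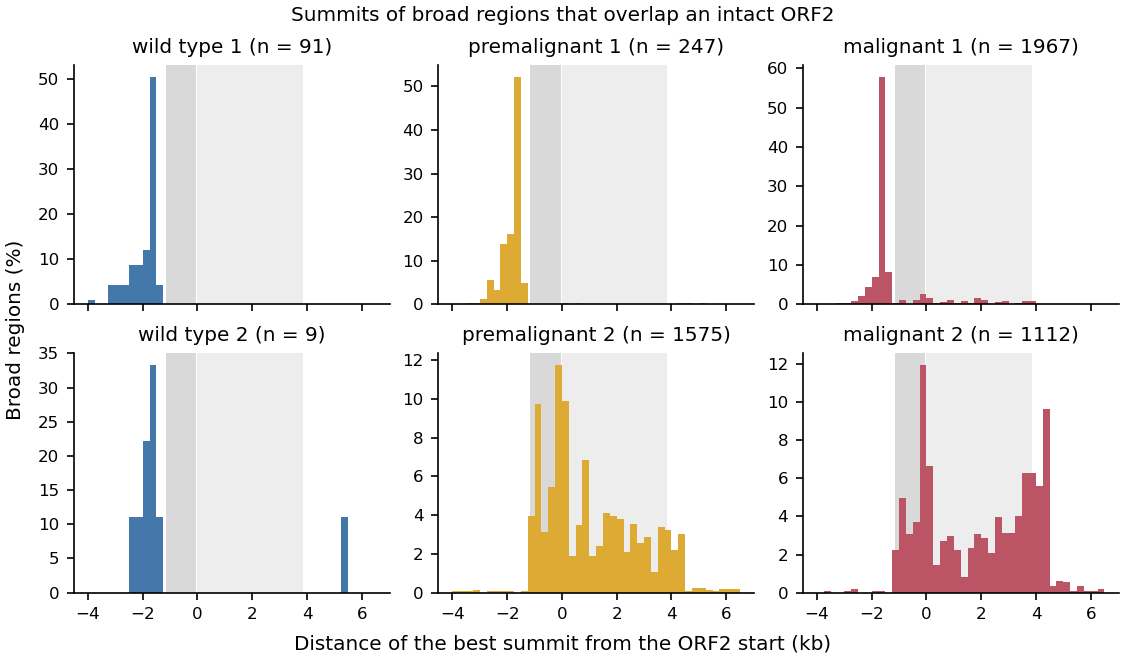
Position of the best summit of broad regions relative to the start of the intact ORF2 they overlap (x axis, kb, in the direction of the element; bins of 250 bp) as a percentage of such regions (y axis, scaled per panel); dark grey marks ORF1 of the commonest length and light grey ORF2. Wild type 1 and 2, premalignant 1 and malignant 1 peak upstream of ORF1, and premalignant 2 and malignant 2 spread over the frames.

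The limits of the regions moved as well. In premalignant 2 the median region ran from -2320 bp to 5328 bp and in malignant 2 from -2088 bp to 5343 bp, past the 3′ end of the element. In malignant 1 it ran from -2902 to 4832 bp. In premalignant 1 it ended at 2825 bp, in wild type 1 at 2001 bp and in wild type 2 at 3062 bp, inside ORF2, after starting at -3056, -3491 and -3233 bp.

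The GC-rich stretch of the element lies where the summits of those 4 libraries were. Over the intact copies the GC content was 59.8% ± 8.17 (SD, n = 2776 copies) at 2000 to 1500 bp upstream of ORF2, where the ratio of observed to expected CpG was at its highest, with a median of 0.585. Across ORF2 itself the window means were 36.2% to 42.2%, and windows from 5000 bp onwards had 39.4% to 39.6%. Copy number was higher further along the element. The median number of times that a 24-mer occurs in the mm9 genome was 2044 in that upstream window, 7128 just before ORF2 and 17689 at 4000 to 4500 bp, and 1 in windows more than 2000 bp upstream of ORF2 or from 4500 bp onwards. Reads from such sequence fit many places, and the effect of this on the called widths and summits was not tested.

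**Figure D4:**
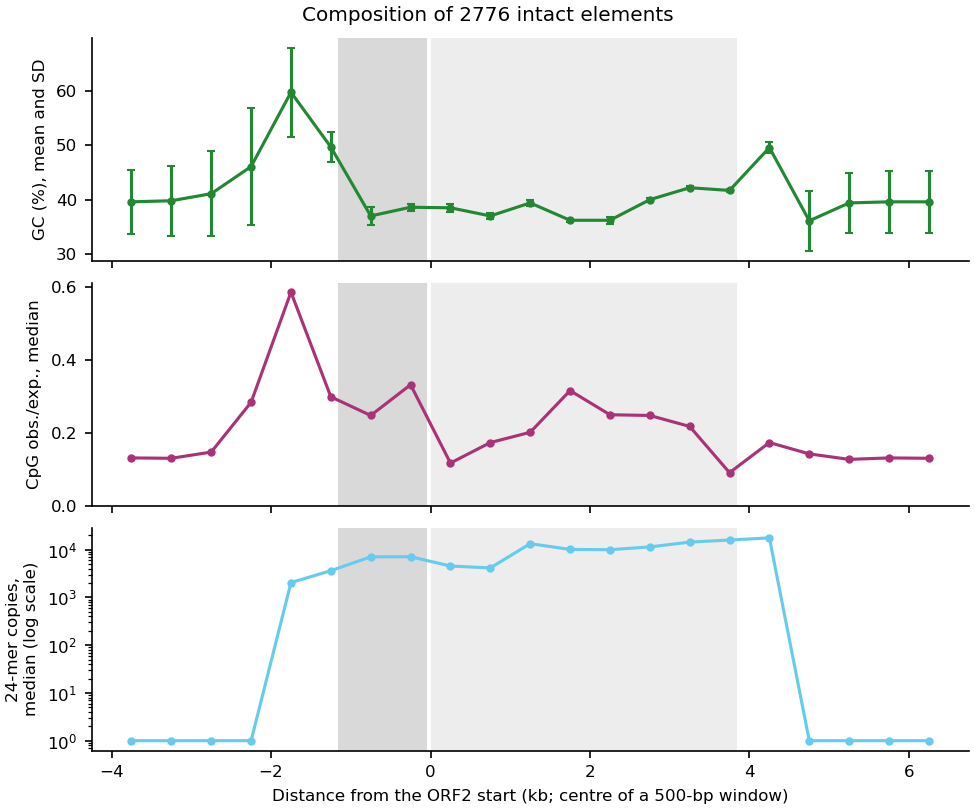
Composition along 2776 intact elements in windows of 500 bp (x axis, distance from the ORF2 start in kb): mean GC content with its SD over copies (top), median observed over expected CpG (middle) and median genome copies of 24-mers on a log scale (bottom). GC content and CpG peak upstream of ORF1 (dark grey), and copy number is highest just past ORF2 (light grey).

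Base composition of broad regions was compared with that of the narrower regions of the same list, library by library. Over whole regions the mean GC content was higher in broad regions in 3 of 6 libraries. It was 46.9% against 43.1% in wild type 1, 51.1% against 42.7% in wild type 2 and 43.8% against 43.5% in premalignant 1, but 40.8% against 42.5%, 41.7% against 44.3% and 40.8% against 43.1% in premalignant 2, malignant 1 and malignant 2. The mean difference was 0.994 ± 4.35 percentage points (SD, n = 6; two-sided exact permutation p = 0.688, adjusted p = 0.688), and without wild type 2 it was -0.496. Broad regions were more alike than narrower ones in the 3 rich libraries, with SDs of GC content over regions of 1.28 to 2.01 against 5.37 to 5.93 percentage points. In premalignant 1 the SDs were 4.37 and 5.43, and in both wild type libraries broad regions varied more, with 5.58 against 5.15 and 7.08 against 4.95.

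Within 500 bp of the summit the split between libraries was wider. Broad regions had 59.2%, 57.8% and 57.7% GC in wild type 1, wild type 2 and premalignant 1, where narrower regions had 45%, 43.7% and 45.5%. Malignant 1 had 49.5% against 46.3%. Premalignant 2 and malignant 2 went the other way, with 39.3% against 43.6% and 40% against 44.9%. The mean difference was 5.76 ± 8.99 percentage points (SD, n = 6; exact permutation p = 0.219, adjusted p = 0.243). The CpG ratio at the summit was higher in broad regions in 5 of 6 libraries, from 0.53 against 0.191 in wild type 1 to 0.207 against 0.196 in premalignant 2, and was 0.197 against 0.21 in malignant 2. Its mean difference was 0.176 ± 0.159 (SD, n = 6; exact permutation p = 0.0938, adjusted p = 0.156).

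The stages were then compared by the GC content of their broad regions. Wild type libraries had a mean of 49.0% ± 3.0, premalignant ones of 42.3% ± 2.15 and malignant ones of 41.2% ± 0.626 (SD, n = 2 each). Premalignant differed from wild type by -6.69, malignant from premalignant by -1.08 and malignant from wild type by -7.78 percentage points. The -1.08 turned to 0.437 without premalignant 1 and was -2.6 without premalignant 2. Exact permutation p-values were 0.33, 0.667 and 0.33 (adjusted 0.5, 0.667 and 0.5), and 0.33 is the smallest p that 2 against 2 libraries can give, so no call could be made.

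Summits on simple tandem repeats, meaning at least 40 bp built from a unit of 1 to 6 bp, were rarer in broad regions in all 6 libraries. The share was 7.43% against 71.6% in wild type 1, 36.0% against 74.4% in wild type 2 and 3.17% against 68.1% in premalignant 1. It was 0.306% against 22.5%, 0.415% against 40.1% and 0.677% against 24.3% in premalignant 2, malignant 1 and malignant 2. The mean difference was -42.2 ± 18.8 percentage points (SD, n = 6; exact permutation p = 0.0312, adjusted p = 0.156). This is the smallest p that 6 libraries allow. It did not pass 0.05 after adjustment over the 10 differences tested, and neither did any other of them. Summits whose 24-mers occur at least 100 times in the genome were more frequent in broad regions, at 64.0% to 99.4% against 35.8% to 78.3%, in 6 of 6 libraries. That measure was chosen after the values had been seen and has no test.

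**Figure D5:**
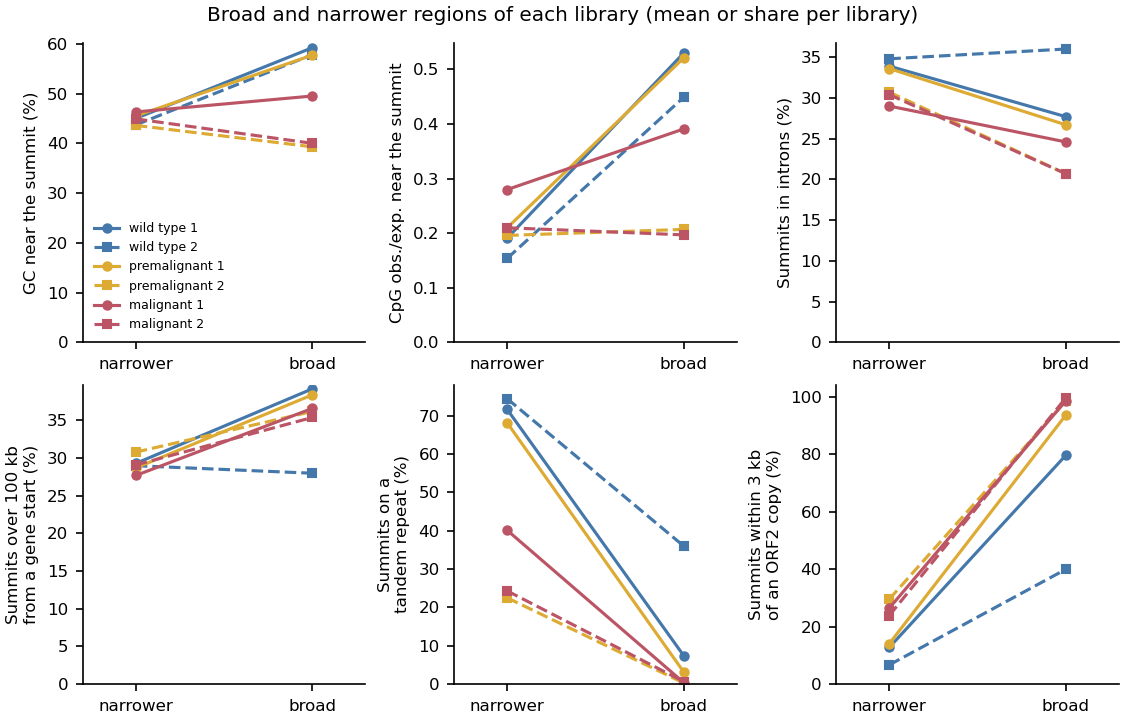
Narrower and broad regions of each library (x axis) for 6 properties (y axes: GC content and CpG ratio as means, the rest as percentages of summits); each line is 1 library, coloured by stage, solid for replicate 1 and dashed for replicate 2. Tandem repeats fall and proximity to ORF2 rises in 6 of 6 libraries, while GC near the summit rises in 4 and falls in premalignant 2 and malignant 2.

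In relation to genes, the regions lay mostly between them. Of the merged regions 2366 (23.2%) overlapped a gene body of the GENCODE M1 annotation, while gene bodies cover 40.6% of the autosomes. Of all ORF2 copies of at least 3000 bp, 20.2% overlapped a gene body. A gene start lay inside 147 regions (1.44%), 3607 (35.3%) were over 100 kb from any gene start and 279 (2.73%) over 500 kb. The median distance to a gene start was 55.7 kb. Summits were in introns in 20.7% to 36.0% of broad regions and 29.0% to 34.8% of narrower ones, lower in broad regions in 5 of 6 libraries, with a mean difference of -6.0 ± 4.11 percentage points (SD, n = 6; exact permutation p = 0.0625, adjusted p = 0.156). Wild type 2, where introns held 36.0% against 34.8%, was the exception.

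Summits over 100 kb from a gene start made up 35.4% to 39.2% of broad regions in the 5 libraries other than wild type 2, against 27.7% to 30.8% of narrower ones. In wild type 2 the shares were 28.0% and 29.0%. The mean difference was 6.53 ± 4.09 percentage points (SD, n = 6; exact permutation p = 0.0625, adjusted p = 0.156). Summits within 1 kb of a gene start were fewer in broad regions in 5 of 6 libraries, at 0.251% to 2.03% against 4.93% to 9.14%, and made up 8.0% against 3.76% in wild type 2 (mean difference -4.15 ± 4.57 percentage points, exact permutation p = 0.0938, adjusted p = 0.156, n = 6). In exons the mean difference was -1.97 ± 2.67 percentage points (exact permutation p = 0.156, adjusted p = 0.195, n = 6).

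Within genes the elements ran mostly against the gene. Of 1803 merged regions in a single protein-coding gene with a long ORF2 copy, 1162 (64.4%) had the copy on the opposite strand. Of all 2780 long copies in such genes, 65.6% were on the opposite strand, so the share in the regions was near that of the copies as a whole.

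Genes overlapped by a broad region numbered 1515 of 34653 on the autosomes (4.37%). The share rose with gene length, from 0.568% of protein-coding genes under 10 kb to 81.9% of the 188 over 500 kb. It was 71.4% (20 of 28) in a list of fragile site and very long genes, whose median length was 1102 kb. Among these, Cntnap2, a neurexin family gene, carried 13 regions and Lrp1b, a large endocytic receptor gene, carried 10. Ptprd, a receptor phosphatase gene, had 8 and Csmd3 had 5. Ptprd and Csmd3 each held a region that was broad in 4 libraries: a 9023-bp region in Ptprd (chr4:75852850-75861872) and an 8246-bp region in Csmd3 (chr15:48228579-48236824). In all, 215 genes held at least 3 regions. Agbl4, a cytosolic carboxypeptidase gene, had the most with 14 over 1267 kb, followed by Cntnap2 and then by Gpc5 and Pcdh15 with 11 each. Itgbl1 was the densest of the 10 genes with most regions, with 9 in 315.6 kb.

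Overlaps were few or absent in the lists of shorter genes, but the shares of receptor genes and immunoglobulin segments exceeded that of protein-coding genes under 10 kb. In the list of B cell identity genes, with a median length of 24 kb, 1 of 30 (3.33%) was overlapped, near the 4.37% of all autosomal genes and the 3.69% of protein-coding genes of 10 to 100 kb. It was Bcl11a, a zinc finger factor that early B cells need. Its region, chr11:23975335-23980556, was 5222 bp wide, held no ORF2 copy, had a GC content of 55.7% and was broad in wild type 1 alone, although malignant 1 listed a peak of 6955 bp there at a rank beyond the best 20000. None of 19 markers of other blood cells and none of 20 genes of the Myc network and cell survival was overlapped, nor any of 40 Hox genes, 70 histone genes, 81 ribosomal protein genes or 39 developmental regulators with CpG islands. Of the olfactory and vomeronasal receptor genes, 28 of 1414 (1.98%) were, among them Vmn2r7, Vmn1r48 and Vmn2r27, each with a region that was broad in 4 libraries. Of the immunoglobulin segments, 4 of 153 (2.61%) were, all of the kappa locus: Igkv1-135, Igkv8-26, Igkv4-80 and Igkv8-21. The receptor genes and the segments had median lengths of 0.966 and 0.469 kb. Both shares were above the 0.568% of protein-coding genes under 10 kb, which was not tested. Histone and ribosomal protein genes, with medians of 0.53 and 3.24 kb and none overlapped, were near that 0.568%.

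Of 20 genes of the RNA polymerase I machinery and nucleolus, 1 (5.0%) was overlapped, near the 4.37% of all autosomal genes. It was Ubtf, the gene of the profiled protein itself. Its region (chr11:102177015-102182031) was 5017 bp wide in wild type 1, just over the limit. Peaks of any rank over it measured at most 4845 bp in wild type 2, 4726 bp in premalignant 1, 4198 bp in premalignant 2, 4777 bp in malignant 1 and 4064 bp in malignant 2. All 6 full lists thus had a peak over 4 kb wide there. The region held no ORF2 copy and no recurring 24-mer, and its GC content was 64.8%, with a CpG ratio of 0.796.

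Sharing of broad regions between libraries was partial. Of the merged regions 4843 (47.4%) were broad in 1 library, 3718 (36.4%) in 2, 1505 (14.7%) in 3, 140 (1.37%) in 4, 14 (0.137%) in 5 and none in 6. The commonest sets were premalignant 2 alone with 2748 regions, premalignant 2 with malignant 2 with 2017, and premalignant 2 with both malignant libraries with 1328. Broad regions of malignant 2 met a broad region of premalignant 2 in 68.5% of cases and one of malignant 1, its own stage, in 38.8%. The same 2 overlaps counted from the other library were 47.0% of the broad regions of premalignant 2 and 46.3% of those of malignant 1. Premalignant 1 met a broad region of malignant 1 in 87.3% of its 378 and one of premalignant 2 in 57.1%, which was 2.94% of the broad regions of premalignant 2. In wild type 1, 86.5% of its 148 met one of malignant 1. Counted from malignant 1, the overlaps with premalignant 1 and wild type 1 were 7.6% and 3.02% of its 4340.

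A peak of some width was nearly always present elsewhere. At least 3 full lists had a peak on 10208 merged regions (99.9%), and all 6 had one on 5783 (56.6%). This count was not made for narrower regions or for other intervals of like width. As 3 of the full lists held 279068 to 575674 lines, it does not set broad regions apart. To compare broad with narrower regions, each library in turn was held out and the summits of the other libraries were looked up in its full list. Summits of broad regions lay inside a peak of the held-out library in 68.8% to 99.0% of cases and those of narrower regions in 67.0% to 88.9%. Broad regions were ahead in 4 of 6 held-out libraries and behind in both wild type libraries, with a mean difference of 5.56 ± 7.48 percentage points (SD, n = 6; exact permutation p = 0.125, adjusted p = 0.179). This order depended on the setting. With sources of the same stage only, broad regions were ahead in 6 of 6 libraries, by 8.83 points (exact permutation p = 0.0312, adjusted p = 0.104, n = 6). With the best 40000 lines they were ahead in 5 of 6, by 11.6 points, and with the best 10000 in 3 of 6, by 0.506 points. The held-out peak over the summit was wider for broad regions in 6 of 6 libraries. Its median width was 3423 against 2108 bp in wild type 1, 2919 against 2117 bp in wild type 2 and 3645 against 2073 bp in premalignant 1. It was 7452 against 2059 bp in premalignant 2, 6927 against 2042 bp in malignant 1 and 6550 against 2104 bp in malignant 2. The mean difference was 3069 ± 2052 bp (SD, n = 6; exact permutation p = 0.0312, the smallest possible, adjusted p = 0.156). The 6 values share source libraries and are not independent of each other.

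By chromosome, the regions numbered 160 on chromosome 19 to 946 on chromosome 1, or 2.57 per Mb on chromosome 11 to 5.37 per Mb on chromosome 3. Per 100 ORF2 copies of at least 3000 bp they numbered between 56.6 on chromosome 7 and 71.4 on chromosome 10. The chromosomes differed less by the second count than by the first.

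Of the 14 regions broad in 5 libraries, the 12 with the best mean rank were broad in all but wild type 2. They held 1 or more ORF2 copies each, of 3840 to 3848 bp at the longest, and measured 8202 to 20444 bp. The first, chr14:56806343-56821978, held 2 intact ORF2 copies and lay 9.35 kb from the start of Gzmf, a granzyme gene. The widest peak of any rank was 6408 bp in wild type 1 and 5997 bp in wild type 2, 10013 and 15636 bp in the premalignant libraries, and 15372 and 7579 bp in the malignant ones. In wild type 2 that peak was not among the best 20000 lines. In 2 of the 12 the best summit lay within a gene, Sema3c (chr5:17113376-17122365), a secreted guidance factor gene, and Pde1c (chr6:56189506-56199583), a cyclic nucleotide phosphodiesterase gene. The region with the highest GC content among them, 51.5%, was chr3:6296625-6316578, 19954 bp wide, where 49.4% of 24-mers recurred within the region, most often at a spacing of 208 bp. Its widest peak was 11699 bp wide in wild type 1 and 19727 bp in malignant 1.

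The best ranked broad regions were not all of this kind. In premalignant 2 and malignant 2 the best ranked one, at ranks 30 and 27, was the same region at chr2:57480785-57488584, with an ORF2 copy of 3843 bp and the start of Gm13532 inside, and its best summit lay on a simple tandem repeat. In malignant 1 it was chr3:5859322-5864414 at rank 28, which held 2033 bp of ORF2 and a summit whose 24-mers had a median of 3 genome copies. In premalignant 1 it was chr6:114442932-114588819 at rank 578, without an ORF2 copy. In both wild type libraries it was chr1:194488080-194493344, in the body of Hhat, at ranks 106 and 54. Hhat codes for the acyltransferase that palmitoylates Hedgehog proteins. That region held no ORF2 copy, and peaks over it were 5207, 5265, 3341, 4793, 3892 and 5187 bp wide in the libraries from wild type 1 to malignant 2, with best ranks of 54 to 271.

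The 132 regions without an ORF2 copy were a mixed set. Their median GC content was 45.4% (quartiles 44.3% and 47.7%) against 40.7% in the others and their median width 6044 against 7525 bp. At their summits the median number of genome copies of 24-mers was 775, and 15.9% of summits lay on a simple tandem repeat. A gene start lay inside 11.4% of them and inside 1.31% of the others, and 40.2% against 22.9% overlapped a gene. Of them 88 were broad in premalignant 2, 30 in malignant 1, 15 in malignant 2, 12 in wild type 1, 11 in wild type 2 and 8 in premalignant 1. Of the 132, 113 were broad in 1 library, 10 in 2, 5 in 3 and 4 in 4.

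The widest merged region of all belongs here: 145888 bp on chromosome 6 (chr6:114442932-114588819), with a GC content of 57.5%, 12.7 kb from the start of Atg7, an autophagy gene. It was made from 29 broad regions. Peaks in it reached 49778 bp in wild type 1 and 98983 bp in wild type 2. The widest of premalignant 1 had 15252 bp and that of malignant 1 had 35014 bp, against 2314 bp in premalignant 2 and 2342 bp in malignant 2. In it 90.4% of 24-mers recurred and the commonest spacing was 2445 bp. Premalignant 2 and malignant 2, which had the most broad regions in all, had no broad region here. Another wide region of chromosome 6, 37800 bp at chr6:47600054-47637853, was broad in malignant 1 alone, and its commonest spacing was 4321 bp. The remaining 3 of the 5 widest, 39305 bp on chromosome 18, 28413 bp at chr7:68490244-68518656 and 26750 bp at chr3:61911467-61938216, held 28700, 19225 and 16331 bp of ORF2 copies.

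Several regions without an ORF2 copy were tandem arrays inside or beside genes. The regions named below had GC contents of 54.7% to 65.8%, above the upper quartile of 47.7% of the 132 regions. They do not stand for the whole set. At Ahnak2, which codes for a large scaffold protein with repeats (chr12:114013188-114023881, GC content 65.8%), 72.7% of 24-mers recurred, mostly at 519 bp. Peaks there were 10234 to 10701 bp wide in all 6 full lists. At Flg, the filaggrin gene (chr3:93083445-93097418), the spacing was 750 bp, and at Muc19, a mucin gene (chr15:91736017-91741726), it was 489 bp. Shorter units lay in Ulk4 at 112 bp, in Rsph3b at 25 bp and in Stam2 at 54 bp. One unit of each is shown from the plus strand of mm9, to set them beside the monomers of the elements, with CG dinucleotides in capitals. They come from chr9:121130209-121130320, chr17:7136276-7136300 and chr2:52552004-52552057.

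Ulk4 unit: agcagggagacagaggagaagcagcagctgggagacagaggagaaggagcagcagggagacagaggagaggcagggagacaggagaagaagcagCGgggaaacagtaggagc
Rsph3b unit: tgtgtggttctgactgcagtgggcc
Stam2 unit: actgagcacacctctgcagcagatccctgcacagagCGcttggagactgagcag

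The GC contents of these units were 59.8%, 60.0% and 59.3%, and they held 1, 0 and 1 CG dinucleotides. They were close in GC content to the monomers but poorer in CG. At Ulk4 (chr9:121128369-121149616) the widest peak of any rank was 20849 bp in wild type 1, 8288 bp in premalignant 1, 21170 bp in premalignant 2, 15175 bp in malignant 1 and 21248 bp in malignant 2, and the list of wild type 2 had none. At Stam2 (chr2:52551153-52558962) it was 7365 to 7810 bp in both wild type libraries, premalignant 1 and malignant 1, 1562 bp in premalignant 2 and absent from malignant 2. Arid2, a chromatin remodelling gene, differed from these arrays. Its start lay in a region (chr15:96114358-96119834) with a GC content of 61.1% and a CpG ratio of 0.921 where 0.293% of 24-mers recurred, and peaks there were 5477, 5367, 5151, 3318, 5054 and 3127 bp wide from wild type 1 to malignant 2.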

How the data were processed

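The authors mapped 50-bp paired-end reads with bowtie2 to mm9 joined to 1 rDNA copy, removed duplicates with Picard (version 1.110 in the submitters' processing notes) and called peaks per library with SPP. The deposited lists give each summit a score of the peak caller, not scaled between libraries, and a q-value (false discovery rate) that was not used for filtering. The 3 inputs were not analysed here. Each list was ranked by score. Sequence came from NCBIM37 and genes from GENCODE M1, both of the mm9 build. ORF2 copies were found with blastn 2.17.0 (e-value 1e-20), and overlaps with bedtools 2.31.1. Each difference is the mean over libraries of broad minus narrower values, tested by two-sided exact sign-flip permutation in scipy 1.17.1. Stage pairs were tested by exact permutation of the libraries between the stages. Benjamini-Hochberg adjustment was made over 10 differences or 3 stage pairs. Libraries with fewer than 20 broad regions were left out. Scripts were tested on simulated data. Regions named are up to 12 broad in most libraries, the 5 widest, and the widest and best ranked of each library. Up to 4 overlapped genes a list and the 10 genes with most regions are named. The regions at Ahnak2, Flg, Muc19, Ulk4, Rsph3b, Stam2 and Arid2 and all ORF2 measures were chosen after their values were seen. The members and gene lists were chosen with earlier results of these data known.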

Additional observations from a re-analysis of the deposited data

Results flagged for a closer look

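Effects of opposite sign in every library of 2 stages were looked for among the 12 differences between broad and narrower regions. The difference in GC content over whole regions was positive in both wild type libraries, with a mean of 6.11 percentage points, and negative in both malignant libraries, with a mean of -2.45. The share of summits found inside a peak of a held-out library was lower for broad than for narrower regions when either wild type library was held out, with a mean of -2.48 percentage points. It was higher in both premalignant libraries, with a mean of 8.8, and in both malignant libraries, with a mean of 10.4. The lower share in wild type did not hold in both libraries under other settings: with sources of the same stage only, broad regions were ahead in 6 of 6 libraries (mean difference 8.83 points), and with the best 40000 lines in 5 of 6 (11.6 points). The difference between the stages was not tested in either case. The wild type lists were shorter than those of both malignant libraries and of premalignant 2, and the part of list length in these values was not tested. With 2 libraries a stage, no test for a single outlying library was made.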

How the results depend on the processing

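None of the 10 tested differences passed 0.05 after adjustment in any of the alternatives run, and with 5 libraries the smallest possible exact p is 0.0625. Of 197 alternative values, 2 changed direction. The GC difference between broad and narrower regions was -0.496 without wild type replicate 2 (range over left-out libraries -0.496 to 1.71), and GC content of malignant minus premalignant broad regions was 0.437 without premalignant replicate 1 (range -2.6 to 0.437). The cause was not tested. Requiring over 7500 bp left 4671 merged regions, by construction fewer, and leaving out 1 library left 7485 to 10214, the lowest without premalignant 2. Limiting the lists to the best 10000 lines left wild type 2 out of most differences, with too few broad regions, and reduced the held-out sharing difference from 5.56 to 0.506 percentage points, while the best 40000 lines gave 11.6 and sources of the same stage 8.83. Intact ORF2 copies inside a region made up 69.2% without malignant 1, 65.1% with over 7500 bp and 97% with the best 40000 lines. With the replicate number as a block the stage differences in GC content were -6.69, -1.08 and -7.78 points (adjusted exact p = 0.5 each). The numbers mark separate replicate experiments and are not stated to pair the stages. Peak lists hold no read counts, so the depth that limits rank and width is unknown. The measures built on ORF2 and 24-mer copies were added after seeing the data.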
